A study of Mus musculus with 6 samples.

Results

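The mouse Schlafen genes were followed in tumour grafts of AXL KO and WT cells. Members were the 7 genes named Slfn1, Slfn2, Slfn3, Slfn4, Slfn5, Slfn8 and Slfn9 in the authors' deposited table, joined by gene identifier to the raw counts of each library. All 7 were among the 14850 genes tested, out of 39179 in the files. The grafts were grown in FVB mice from cells of the MMTV-Neu model, in which a mammary tumour virus promoter drives the Neu (ErbB2) oncogene mainly in mammary epithelium. RNA-seq was made from 3 grafts of cells knocked out for Axl (AXL KO) and 3 grafts of wild-type cells (WT), so that both groups carried Neu and grew in the same strain. AXL belongs to the TAM receptor tyrosine kinases, and the comparison asks what differs between grafts of knockout and wild-type cells. Mouse age, time of harvest and the number of cell clones are not given in the labels.

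The host keeps its own cells, so a graft holds tumour cells together with stroma, vessels and leukocytes. In such bulk samples, fewer cells of a type and less RNA per cell cannot be told apart. Counts in genes were 28808499, 32491807 and 30707339 in the AXL KO libraries and 26541009, 29977133 and 28576350 in the WT libraries. The labels do not tie the grafts to separate animals, so the p-values below cover only sample-to-sample spread, part or all of which may be technical. Axl itself had 1360, 2396 and 1767 counts in AXL KO grafts and 1906, 1761 and 1507 in WT grafts. Its log2 fold change was -0.01 (edgeR adjusted p = 0.978). Host cells can express Axl and the deleted part of the gene is not given in the labels, so this level does not check the genotype. Mammary epithelial markers were abundant in every library, with a summed level of 12057 to 14286 CPM (counts scaled to library size) in AXL KO grafts and 11918 to 13232 CPM in WT grafts. Most of that sum came from Erbb2, the oncogene of the model, at 9207 ± 1007 CPM in AXL KO grafts and 7193 ± 655 CPM in WT grafts (SD, n = 3 each).

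Schlafen genes take their name from the German word for sleep, because the first members were described through their effect on the growth of thymocytes and T cells. The mouse proteins fall into short forms (Slfn1 and Slfn2), intermediate forms (Slfn3 and Slfn4) and long forms (Slfn5, Slfn8 and Slfn9), which add a helicase-like region. Several are induced by type I interferon, and human long forms such as SLFN11 and SLFN13 cleave transfer RNA. All 7 mouse genes lie in a cluster on chromosome 11 (GRCm38, GENCODE annotation), which spans positions 82951349 to 83286726, or 335.4 kb, when the neighbouring Schlafen genes Slfn10-ps and Slfn14 are included.

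Because the members sit side by side and 6 of them differed in the same direction, their promoters are shown first. The bases before the start were taken from RefSeq (GRCm38.p6), and they read 5′ to 3′ on the strand of the gene, 250 of them per promoter. RefSeq windows were found for all 7 members, 8 in all because Slfn8 has a second start. Capitals mark matches to GAAANNGAA on either strand, the tandem GAAA spacing of the interferon-stimulated response element. The promoters of 3 long-form genes that hold a match are given together with that of Slfn2, the member with the smallest p, which holds none. The Slfn5 bases are chr11:82951852-82952101 on the plus strand, those of Slfn8 chr11:83020811-83021060 on the minus strand, those of Slfn9 chr11:82991831-82992080 on the minus strand, and those of Slfn2 chr11:83064862-83065111 on the plus strand.
Slfn5: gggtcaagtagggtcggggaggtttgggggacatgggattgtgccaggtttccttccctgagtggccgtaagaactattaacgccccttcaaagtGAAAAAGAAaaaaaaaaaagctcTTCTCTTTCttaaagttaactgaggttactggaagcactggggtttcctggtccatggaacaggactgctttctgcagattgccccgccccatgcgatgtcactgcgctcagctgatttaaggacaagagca
Slfn8: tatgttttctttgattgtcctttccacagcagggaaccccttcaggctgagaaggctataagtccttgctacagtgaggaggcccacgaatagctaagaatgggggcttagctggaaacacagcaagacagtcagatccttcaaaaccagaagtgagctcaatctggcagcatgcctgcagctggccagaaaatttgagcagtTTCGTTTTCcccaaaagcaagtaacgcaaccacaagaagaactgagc
Slfn9: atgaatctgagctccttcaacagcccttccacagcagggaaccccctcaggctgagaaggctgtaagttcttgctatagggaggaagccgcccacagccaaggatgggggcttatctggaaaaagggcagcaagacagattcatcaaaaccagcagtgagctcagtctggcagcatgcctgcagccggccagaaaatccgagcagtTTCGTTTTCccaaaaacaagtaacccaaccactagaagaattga
Slfn2: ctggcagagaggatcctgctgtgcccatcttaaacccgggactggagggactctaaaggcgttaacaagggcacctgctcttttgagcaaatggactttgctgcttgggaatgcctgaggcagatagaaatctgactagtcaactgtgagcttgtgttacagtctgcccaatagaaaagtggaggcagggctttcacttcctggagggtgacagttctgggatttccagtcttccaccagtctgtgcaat

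The search covered the window of 300 bases, which adds 50 bases after each start. GAAANNGAA was found in 3 of the 7 members, against 9.76% of 27025 genes with a RefSeq promoter and 8.56% of all 32851 promoter windows. Slfn5 held 2 matches, GAAAAAGAA beginning 155 bases before the RefSeq start and TTCTCTTTC beginning 132 bases before it. GENCODE places the start of Slfn5 further upstream, at 82951349, so this window lies inside the gene as GENCODE annotates it. The bases before the GENCODE start of Slfn5 were not searched. Slfn8 and Slfn9 held the same letters, TTCGTTTTC, beginning 47 and 44 bases before their starts. Aligned over the whole window, the Slfn8 and Slfn9 promoters shared 252 of 300 bases (84.0%), so their matches lie in shared sequence. The other 20 pairs of members shared between 55.7% and 62.3%, and no value for unrelated promoters is given here to set beside these. The palindromic spacing TTCNNNGAA, that of the gamma-activated site, was found in 0 of the 7 members, against 9.55% of genes. Among the 18 interferon-stimulated antiviral genes with a RefSeq promoter, 12 held GAAANNGAA and 4 held TTCNNNGAA. A match describes letters in a window and not a bound site.

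Schlafen transcripts were higher in AXL KO grafts than in WT grafts. By edgeR's quasi-likelihood test with Benjamini-Hochberg adjustment over all 14850 genes, 6 of 7 members were higher at an adjusted p under 0.05 and 0 were lower. Over all tested genes, 19.1% were called higher and 18.3% lower. No member had a log2 fold change below 0, so 0 were lower at an unadjusted p under 0.05 too, and limma-voom and DESeq2 also called 6 higher and 0 lower. The same 6 members were at least 2-fold higher, which held for 5.14% of tested genes. In 6 of 7 members every AXL KO library lay above every WT library, a pattern seen in 26.9% of tested genes. The median log2 fold change of the members was 2.25, beside 0.00 over all tested genes. Summed over the members, the level was 274, 291 and 295 CPM in AXL KO grafts and 61.3, 76.3 and 69.0 CPM in WT grafts, a ratio of means of 4.16.

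**Figure D1:**
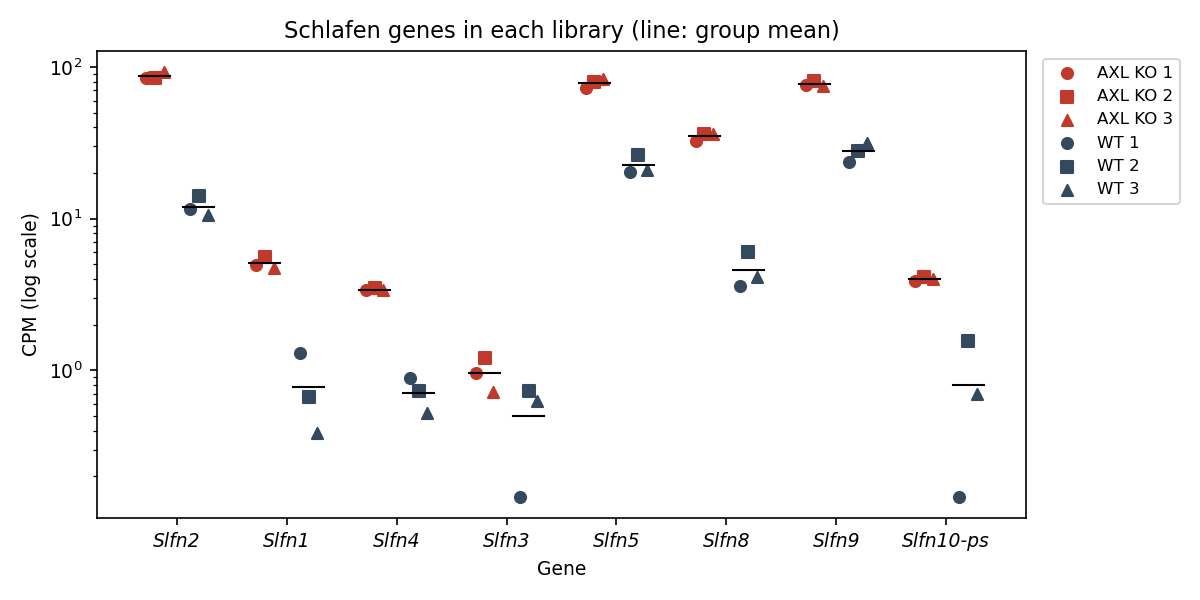
Level of each Schlafen gene in each library in CPM on a log axis, with AXL KO libraries left of WT libraries; each point is a library and the bar is the group mean. The 3 AXL KO points lie above the 3 WT points in every member except Slfn3.

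Among the short forms, Slfn2 is required in mice for T cells and monocytes to stay quiescent. It had 84.6, 83.9 and 92.5 CPM in AXL KO grafts and 11.5, 14 and 10.6 CPM in WT grafts. The lowest AXL KO library was 5.98 times the highest WT library, the widest gap of any member. Its means were 87.0 ± 4.81 CPM in AXL KO grafts and 12 ± 1.77 CPM in WT grafts (SD, n = 3 each), a 7.21-fold difference with a 95% interval of 6.04 to 8.62 (edgeR adjusted p = 1.79e-06). Slfn2 ranked 10 by p among the 14850 tested genes and 161 by fold. It lies at chr11:83065112-83070678 on the plus strand.

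Slfn1 restrains thymocyte growth when it is overexpressed in mice. It was a low-count gene, with 140, 182 and 143 counts in AXL KO libraries and 35, 20 and 11 counts in WT libraries. On the CPM scale these were 4.96, 5.62 and 4.70 in AXL KO grafts and 1.29, 0.665 and 0.384 in WT grafts. The groups did not overlap, and the WT libraries spread widely, with a coefficient of variation of 59.4% against 21.3% from counting alone. The difference was 6.56-fold with a wide interval of 3.89 to 11.1 (edgeR adjusted p = 0.000459). Slfn1 lies at chr11:83116849-83122670 on the plus strand.

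By mean CPM the intermediate forms were the scarcest in both groups. In WT 2 and WT 3, however, Slfn1 lay below both of them, at 0.665 and 0.384 CPM. Slfn4, known in mice as a myeloid-cell gene, had 3.36, 3.46 and 3.38 CPM in AXL KO grafts and 0.883, 0.731 and 0.523 CPM in WT grafts. The groups were well separated, although the WT values rest on 24, 22 and 15 counts. The difference was 4.76-fold (95% interval 3.36 to 6.75, edgeR adjusted p = 0.000147). The AXL KO libraries differed among themselves by a coefficient of variation of 1.49%, less than the 9.84% that counting gives, so that small SD understates the error.

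Slfn3, studied in rodent gut epithelium, was the member that did not pass the test. It had 0.956, 1.21 and 0.723 CPM in AXL KO grafts and 0.147, 0.731 and 0.628 CPM in WT grafts. The groups overlapped, since the highest WT library stood just above the lowest AXL KO library. These levels rest on 27, 39 and 22 counts in AXL KO libraries and on 4, 22 and 18 in WT libraries. The fold of 1.89 had an interval of 0.932 to 3.82 (edgeR adjusted p = 0.139), which includes no difference and also the folds of Slfn5 and Slfn9. The filter on low values asks for 3 libraries of either group at 0.340 CPM or more. All 3 AXL KO libraries and 2 WT libraries reached it, so the WT libraries of Slfn3 alone would not have passed. Slfn4 lies at chr11:83175186-83190216 and Slfn3 at chr11:83191330-83215154, both on the plus strand.

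The long forms rose by unequal amounts. Slfn8 had 32.3, 36.2 and 36.0 CPM in AXL KO grafts and 3.61, 6.05 and 4.15 CPM in WT grafts. It showed the highest fold of the family, 7.54 with an interval of 5.74 to 9.91 (edgeR adjusted p = 1.07e-05), an interval that overlaps those of Slfn2, Slfn1 and Slfn4. Slfn5, whose human counterpart restricts herpes simplex virus in the nucleus, had 72.0, 79.9 and 82.9 CPM in AXL KO grafts and 20.2, 26.2 and 21 CPM in WT grafts. Its difference was 3.48-fold (2.92 to 4.16, edgeR adjusted p = 1.34e-05). Slfn9 had 75.7, 80.6 and 74.6 CPM in AXL KO grafts and 23.6, 27.9 and 31.7 CPM in WT grafts. Its difference of 2.77-fold (2.34 to 3.29, edgeR adjusted p = 3.26e-05) was the smallest of the 6 that passed. The intervals of Slfn8 and Slfn9, the pair with alike promoters, did not overlap. Slfn5 lies at chr11:82951349-82964840 on the plus strand, Slfn9 at chr11:82978390-82991830 and Slfn8 at chr11:83002158-83020810, both on the minus strand.

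**Figure D2:**
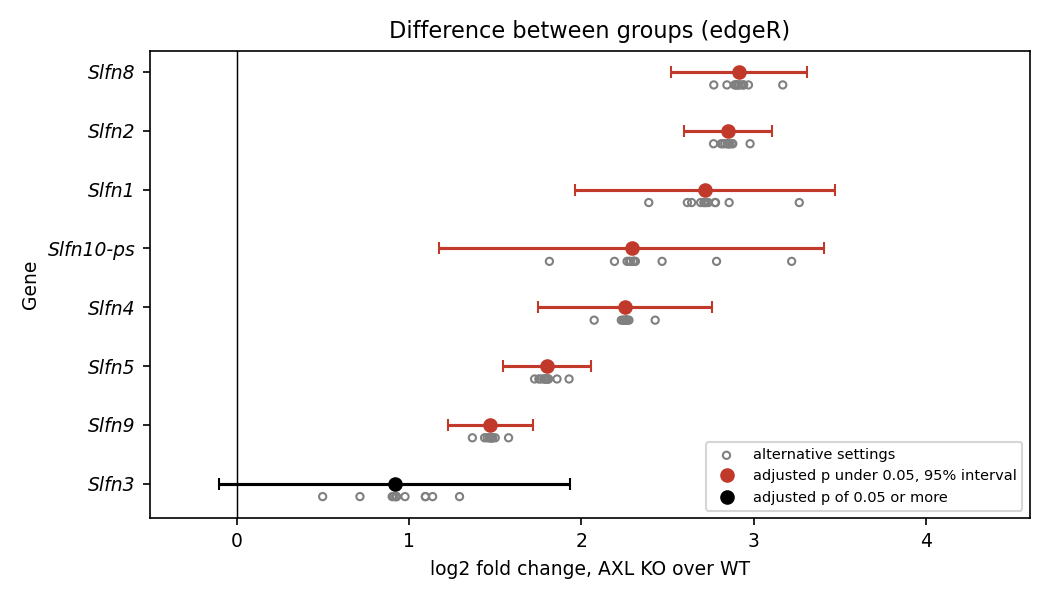
Log2 fold change of AXL KO over WT for each Schlafen gene with its 95% interval; grey circles are the values under alternative settings. The intervals of 6 members lie above 0, that of Slfn3 includes 0, and no alternative value falls below 0.

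The authors' deposited table gave log2 fold changes of 2.57 for Slfn1, 2.82 for Slfn2, 2.15 for Slfn4, 1.78 for Slfn5, 2.87 for Slfn8 and 1.46 for Slfn9, after its sign was turned to AXL KO over WT. Slfn3 stood at 0.80 in the authors' deposited table, with an adjusted p of 0.199. The edgeR values for the same libraries were 2.71 for Slfn1, 2.85 for Slfn2, 2.25 for Slfn4, 1.8 for Slfn5, 2.91 for Slfn8, 1.47 for Slfn9 and 0.92 for Slfn3. In both sources Slfn3 was the only member not past a threshold of 0.05.

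Other genes with a Schlafen symbol were examined for comparison. The pseudogene Slfn10-ps, which lies between Slfn8 and Slfn2, had 3.90, 4.14 and 3.98 CPM in AXL KO grafts and 0.147, 1.56 and 0.698 CPM in WT grafts. It was 4.89-fold higher (log2 fold change 2.29 ± 0.49 SE, edgeR adjusted p = 0.00703), with the 3 WT libraries resting on 4, 47 and 20 counts. Without WT replicate 2 the log2 fold change was 3.22 (adjusted p = 0.00203), without WT replicate 1 it was 1.81 (0.00316) and without WT replicate 3 it was 2.19 (0.0356). Slfn10-ps passed the filter with 3 AXL KO libraries and 2 WT libraries. Slfn14, which in people is linked to platelet disorders, had 0, 1 and 1 counts in AXL KO libraries and 2, 0 and 0 in WT libraries and was not tested. Its promoter window held a match to GAAANNGAA, beginning 197 bases before the start. Slfnl1, a Schlafen-like gene on chromosome 4, had 0 counts in all 6 libraries.

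Levels of different genes can be set side by side only per length, here as CPM per kb of annotated exon. In AXL KO grafts the order was Slfn2 at 52.3 ± 2.89, Slfn9 at 12.9 ± 0.537, Slfn5 at 12.4 ± 0.883, Slfn8 at 8.51 ± 0.536, Slfn1 at 2.73 ± 0.256, Slfn4 at 0.859 ± 0.0128 and Slfn3 at 0.282 ± 0.0707 CPM per kb (SD, n = 3). Slfn9 and Slfn5 did not differ beyond that spread. In WT grafts the order was the same, with Slfn2 at 7.24 ± 1.06, Slfn9 at 4.65 ± 0.677, Slfn5 at 3.55 ± 0.514, Slfn8 at 1.12 ± 0.313, Slfn1 at 0.418 ± 0.248, Slfn4 at 0.180 ± 0.0456 and Slfn3 at 0.147 ± 0.0914 CPM per kb. There Slfn9 and Slfn5, Slfn1 and Slfn4, and Slfn4 and Slfn3 each had overlapping ranges of mean ± SD. Within WT 1, WT 2 and WT 3, Slfn5 over Slfn9 per kb was 0.806, 0.884 and 0.624, and Slfn1 over Slfn4 3.1, 1.93 and 1.56. Slfn4 stood above Slfn3 per kb in WT 1 only.

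The share of each member in the family sum follows from the unequal folds, and the shares are described here without a test. Slfn2 made up 58.7%, 56.2% and 59.4% of the summed CPM per kb of the members in AXL KO grafts and 43.5%, 43.2% and 38.5% in WT grafts, without overlap. Slfn8 likewise took a larger share, 9.46% ± 0.375 in AXL KO grafts and 6.42% ± 1.05 in WT grafts (SD, n = 3 each). The shares of the other long forms were smaller in AXL KO grafts. Slfn9 took 14.4% ± 0.895 in AXL KO grafts and 27.0% ± 4.44 in WT grafts, and Slfn5 took 13.7% ± 0.517 in AXL KO grafts and 20.5% ± 0.680 in WT grafts. The shares of Slfn1, Slfn4 and Slfn3 overlapped between the groups.

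**Figure D3:**
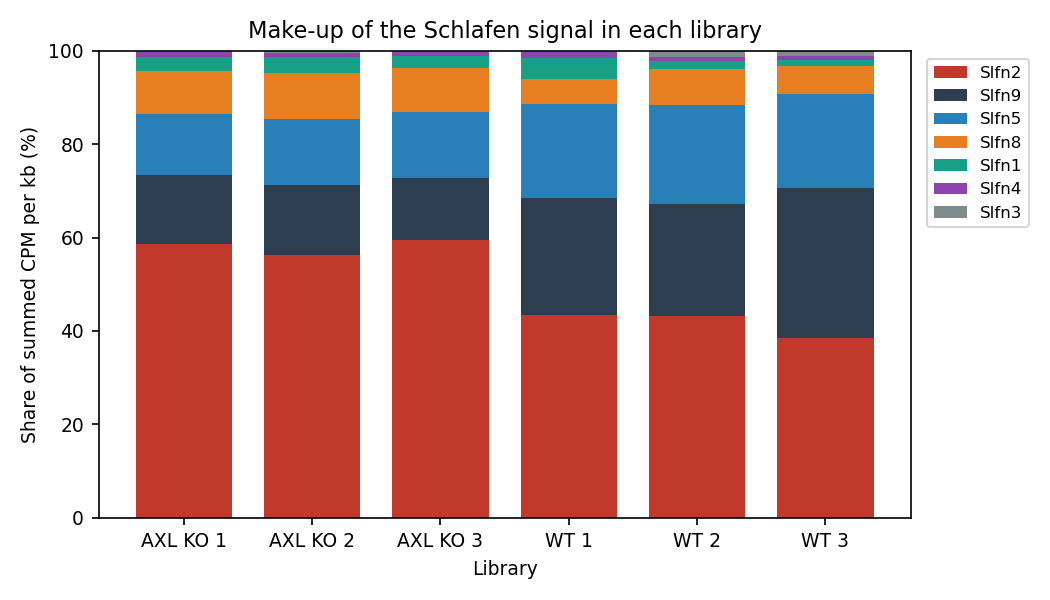
Share of each Schlafen gene in the summed CPM per kb of the 7 members, stacked for each library, AXL KO 1 to 3 and then WT 1 to 3. The Slfn2 segment is 56.2% to 59.4% in AXL KO libraries and 38.5% to 43.5% in WT libraries.

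Ratios between members of the same library do not depend on how libraries are scaled. The 6 members that passed the test form 15 pairs, and in 9 the within-library ratio did not overlap between the groups. The pairs reuse these 6 members, and their ratios restate the unequal folds. The share over all pairs of tested genes was not computed, so 9 of 15 is not read as unusual. The ratio of Slfn8 to Slfn9 per kb was 0.622, 0.654 and 0.704 in AXL KO grafts and 0.223, 0.316 and 0.191 in WT grafts. The ratio of Slfn2 to Slfn5 per kb was 4.47, 3.99 and 4.25 in AXL KO grafts and 2.17, 2.04 and 1.92 in WT grafts. Slfn8 and Slfn2 kept overlapping ratios, 0.155, 0.175 and 0.158 in AXL KO grafts and 0.127, 0.175 and 0.159 in WT grafts (exact permutation p = 0.9, two-sided). For each of the 9 pairs the two-sided exact permutation p was 0.1, the smallest that 3 against 3 libraries allow, and 0.167 after adjustment over the 15 pairs, so no ratio could pass a threshold of 0.05.

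Sequence shared with other genes limits these values for some members. Of the 50-base windows of each gene's transcripts, the share also found in transcripts of another gene was 0.606% for Slfn1, 4.27% for Slfn2, 11.1% for Slfn5, 11.3% for Slfn4, 11.9% for Slfn9, 14.6% for Slfn8 and 16% for Slfn3. Where such a window lies at another place in the genome, a read confined to the shared sequence does not align uniquely. The deposited files list non-unique alignments apart from the gene counts. The pseudogene Slfn10-ps had a larger share than any member, 19.7%. Slfn9 and Slfn10-ps shared 483 such windows, Slfn8 and Slfn10-ps 423, Slfn8 and Slfn9 389, and Slfn3 and Slfn4 252. Read length is not given, so how many reads of these copies were set aside is unknown. The level of Slfn10-ps is uncertain for that reason. Slfn5 shared 0 windows with other Schlafen genes. Of its windows, 467 were shared with the antisense gene Slfn5os, which overlaps 559 of its exonic bases at the same place. Slfn5os had 0 counts in all 6 libraries. The use of strand in counting is not given in the sources used here, so reads of the opposite strands cannot be told apart there.

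Genes around the cluster were compared to see whether the difference extended beyond the Schlafen genes. Within 500 kb on either side, 24 other genes were tested, of which 7 were higher and 1 was lower in AXL KO grafts, and the log2 fold changes had a median of 0.26. Over all tested genes 19.1% were called higher and 18.3% lower. The nearest tested flanks were Unc45b, with a log2 fold change of -0.20 (edgeR adjusted p = 0.616), and AA465934, with 0.40 (adjusted p = 0.19). AI662270, which lies inside the cluster between Slfn3 and Slfn14, had 0.36 (adjusted p = 0.22). None of these 3 genes passed the test. The neighbours with the smallest p were Wfdc18, a secreted whey acidic protein-type gene, with a log2 fold change of 1.39, and Ccl5, a chemokine of T and NK cells, with 1.57. Ccl5 had 4.04 ± 0.798 CPM in AXL KO grafts and 1.36 ± 0.192 CPM in WT grafts (SD, n = 3 each, edgeR adjusted p = 0.000789). Rad51d and Lig3, both DNA repair genes, followed with 0.47 and 0.50, Gm11423 with 0.99, and the matrix metalloproteinase Mmp28 was the gene that was lower, at -1.59. Ccl5 thus lay above Slfn9 (1.47) and below Slfn5 (1.8), and Wfdc18 and Gm11423 lay between Slfn3 (0.92) and Slfn9.

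**Figure D4:**
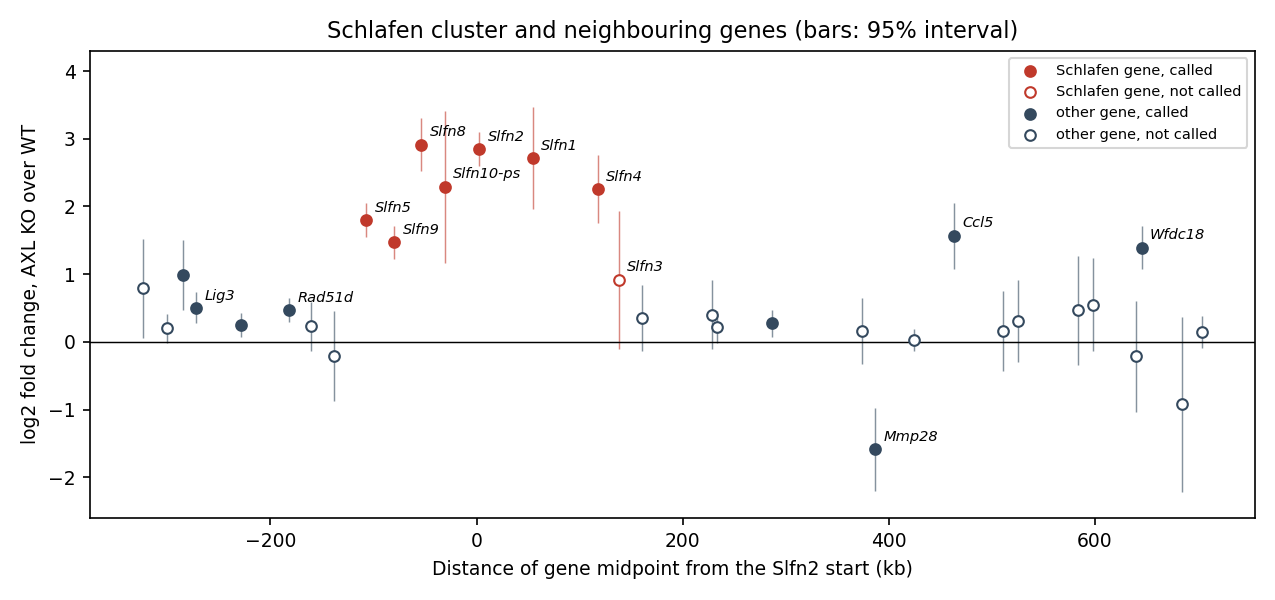
Log2 fold change of AXL KO over WT for each tested gene within 500 kb of the Schlafen cluster, against the distance of its midpoint from the start of Slfn2 in kb. Schlafen genes other than Slfn3 lie at 1.47 or more, while the 24 other tested genes have a median of 0.26 and reach 1.57 (Ccl5).

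Genes with profiles most like the family were sought among 11471 tested genes outside it whose mean log2 CPM was 2 or more, by the root mean square difference of centred log2(CPM + 0.5) values over the 6 libraries. Closest to the mean of the members were Trim12c, with a difference of 0.09, Ube2l6 and Il18bp, with 0.10 each, Trim30a with 0.12 and Gm11131 with 0.13. Ube2l6 is the conjugating enzyme of the ubiquitin-like modifier ISG15, and Il18bp binds and neutralises interleukin 18. Closest to Slfn2 were the interferon-inducible GTPases Gbp4 and Irgm1 and the nuclear body gene Sp100. Closest to Slfn8 were Gbp2, Parp14 and Isg15, and closest to Slfn5 were Trim12c, Parp9 and Gspt2. The genes nearest to Slfn9 were Trp53inp1, Cpd and 9230114K14Rik, those nearest to Slfn4 were H2-T24, Slc4a7 and Fgl2, and those nearest to Slfn1 were Trim30a, H2-T24 and Slc4a7. These are descriptions over 6 libraries that fall into separate groups. The likeness mostly measures the size of the group difference on the log2(CPM + 0.5) scale, where the added 0.5 shrinks it for genes of low CPM. Slfn1, at a log2 fold change of 2.71 in edgeR, was nearest to genes at 2.10, 1.90 and 1.89, with differences of 0.25 to 0.27.

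The interferon genes were read beside the Schlafen genes as the pathway that induces several of them. Of 24 interferon-stimulated antiviral genes, 24 were higher and 0 lower in AXL KO grafts, and their log2 fold changes had a median of 2.96. Among all tested genes, 19.1% were called higher and 18.3% lower. Among them Herc6, a ligase for ISG15, had 86.7 ± 0.912 CPM in AXL KO grafts and 17.6 ± 1.91 CPM in WT grafts, a 4.93-fold difference. Ifit3, a binding protein of the antiviral response, was 16.3-fold higher, Bst2, which tethers budding virions, 9.0-fold and Trim30a 4.3-fold. Their summed level was 2448 to 2861 CPM in AXL KO grafts and 279 to 470 CPM in WT grafts.

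Of 16 genes of interferon signalling, 9 were higher and 2 lower, with a median of 0.42, beside 19.1% of all tested genes higher and 18.3% lower. The transcription factor gene Irf7 was 14.3-fold higher, Irf1 2.41-fold and the ISG15 protease gene Usp18 17.7-fold. Usp18 had 137 ± 16.8 CPM in AXL KO grafts and 7.68 ± 3.14 CPM in WT grafts (SD, n = 3 each, edgeR adjusted p = 1.24e-05). The receptor subunit genes Ifnar2 and Ifngr1 were those called lower, by log2 fold changes of -0.37 and -0.40, and 1 gene of the list was called lower without AXL KO replicate 1 or without AXL KO replicate 3.

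Lists tied to the described activities of Schlafen proteins had medians near that of all tested genes. Of 12 genes of lymphocyte quiescence, 2 were higher and 1 was lower, with a median of -0.01. Neither count exceeded the share over all tested genes, which was 19.1% higher and 18.3% lower. Btg2, an antiproliferative gene, was 1.56-fold higher and Tsc1, an inhibitor of mTOR signalling, 1.24-fold, and Klf2, a factor of naive T cells, was lower with a log2 fold change of -0.76. Leaving out AXL KO replicate 1, 2 or 3 or WT replicate 1 or 3 left 1 gene higher. The number lower was 0 without AXL KO replicate 3 and 2 without AXL KO replicate 2 or WT replicate 1. Of 7 genes of tRNA cleavage and methylation, 3 were higher and 1 was lower, with a median of -0.01. Elac2, which trims the ends of transfer RNA precursors, was 1.32-fold higher and the methyltransferase gene Trdmt1 1.45-fold, while the RNase gene Zc3h12a was lower by a log2 fold change of -0.44. Without AXL KO replicate 1 or 3 the number higher was 1, and without AXL KO replicate 1 or 3 or WT replicate 2 or 3 the number lower was 0.

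Schlafen genes are expressed in leukocytes, so cell type markers were measured in the same libraries. Their counts are set beside the 19.1% of all tested genes called higher and 18.3% called lower. Of 12 tested T cell markers out of 13, 11 were higher and 0 lower, and their log2 fold changes had a median of 1.76. Their sum was 25.6 to 28.1 CPM in AXL KO grafts and 9.94 to 13.6 CPM in WT grafts. Of 10 markers of NK and cytotoxic cells, 10 were higher, with a median of 3.09 and a sum of 40.3 to 55.4 CPM in AXL KO grafts and 3.61 to 6.95 CPM in WT grafts. Klrk1, which encodes the receptor NKG2D, was 14.1-fold higher. Of 10 dendritic cell markers 7 were higher, with a sum of 263 to 294 CPM in AXL KO grafts and 35.5 to 45.8 CPM in WT grafts, most of it from Bst2, which the antiviral list also holds. Some markers of each of these lists had no WT library above the filter's 0.340 CPM and entered the test through the AXL KO group. Eomes, for example, was at 0.184, 0.0997 and 0.105 CPM in WT grafts. Such markers could be tested only where they were high in AXL KO grafts, which limits the counts called higher. No marker of these lists was at 0 in all libraries, and their part in the Schlafen result was not tested.

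Calls among myeloid markers were few in either direction and are not read as a difference of these cells. The shares over all tested genes were 19.1% higher and 18.3% lower. Of 12 markers of monocytes and macrophages, 3 were higher and 1 was lower, with a median of 0.14 and a sum of 491 to 1071 CPM in AXL KO grafts and 677 to 1002 CPM in WT grafts. Ly6c2, a marker of inflammatory monocytes, was 11.3-fold higher, and Cd14 was lower by a log2 fold change of -0.58. Without AXL KO replicate 2 the number lower was 4, and without AXL KO replicate 3 or WT replicate 1 it was 0. Of 5 tested neutrophil markers out of 9, 0 were higher and 1 was lower, and Camp was at 0 in all libraries. The neutrophil sum was 5.35 to 10.8 CPM in AXL KO grafts and 5.48 to 13.4 CPM in WT grafts. The number lower was 0 without AXL KO replicate 1 or 3 or WT replicate 1 or 3, and 2 without AXL KO replicate 2 or WT replicate 2. Of 7 B cell markers 2 were tested, with log2 fold changes of 0.19 and 0.41, and 0 passed, with a sum of 2.46 to 4.26 CPM in AXL KO grafts and 2.10 to 2.89 CPM in WT grafts.

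Endothelial and erythroid markers were mostly lower in AXL KO grafts. For comparison, 18.3% of all tested genes were called lower and 19.1% higher. Of 9 endothelial markers 8 were lower and 0 higher, with a median of -0.71 and a sum of 187 to 249 CPM in AXL KO grafts and 321 to 360 CPM in WT grafts. Of 6 tested erythroid markers out of 7 in the files, 6 were lower, with a median of -2.20 and a sum of 152 to 237 CPM in AXL KO grafts and 647 to 1023 CPM in WT grafts. An erythroid marker among the 6 had no AXL KO library above the filter's 0.340 CPM and entered the test through the WT group. Of 3 tested platelet markers out of 6, 1 was lower, and 2 were lower without AXL KO replicate 2 or WT replicate 2. Of 8 fibroblast markers 1 was lower, with a sum of 781 to 1430 CPM in AXL KO grafts and 1160 to 1815 CPM in WT grafts, and 3 were lower without AXL KO replicate 2. Of 8 tested mammary epithelial markers out of 9, 2 were higher and 4 lower, with a median of -0.12. Those higher were Esrp1 (1.47-fold) and Erbb2 (1.28-fold), and those lower were Epcam, Krt18, Krt8 and Cldn3, with log2 fold changes of -0.53, -0.60, -0.44 and -0.26. The number higher was 1 without AXL KO replicate 1 or 3 or WT replicate 1 or 3.

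**Figure D5:**
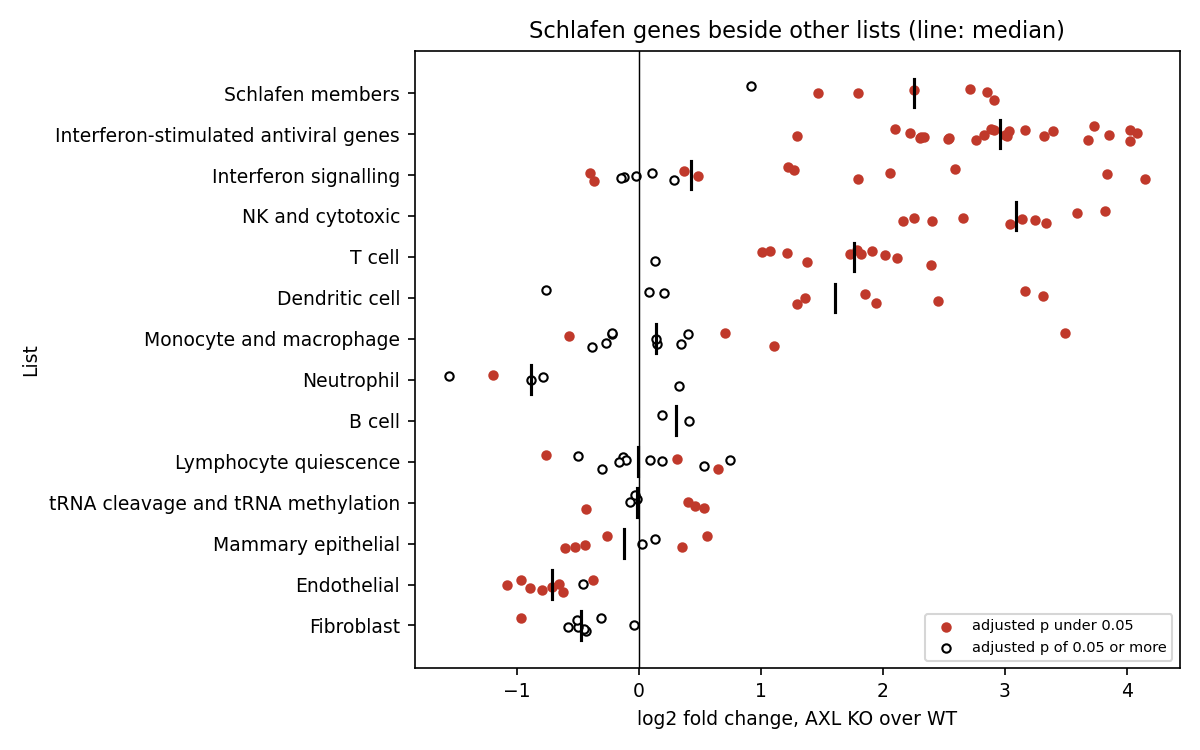
Log2 fold change of AXL KO over WT for the tested genes of each list shown, a point per gene, with the median as a bar. The erythroid, platelet and neighbouring genes are not drawn. The Schlafen members have a median of 2.25, the antiviral genes 2.96 and the NK and cytotoxic markers 3.09, while the mammary epithelial markers have a median of -0.12.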

How the data were processed

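Each library's deposited file holds raw counts per gene for 39179 identifiers, made by the authors with CASAVA 1.8, TopHat2 2.0.10 on GRCm38 and HTSeq 0.5.3, per the submitters' processing notes. A further 5 rows that name no gene were left out: they include alignments that were not unique (25.7% to 29.0% of counted lines), those outside annotated genes (4.41% to 6.88%) and ambiguous ones (0.717% to 1.09%). The sources used here give neither strand use nor read length. The authors' deposited table of their DESeq2 1.4.5 comparison holds a signal per library (counts divided by a size factor), log2 fold changes of WT over AXL KO, p-values and a test score. It was described and not retested.

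Libraries were grouped by sample title. Genes were filtered with filterByExpr (minimum count 10, minimum total 15), which left 14850 of 21716 genes with any count, and scaled with TMM factors of 0.980 to 1.02. AXL KO was set against WT by quasi-likelihood testing in edgeR 4.0.16 (R 4.3.3), with Benjamini-Hochberg adjustment over all tested genes, a threshold of 0.05, group as the only term and 4 residual degrees of freedom. The biological coefficient of variation was 0.117. Levels are CPM, and intervals are 95%. Libraries of a group differed by more than counting noise (chi-square per gene 11.8 to 31.4 within groups and 99.4 to 162 between them), so none was taken as a library deposited again; this does not show that they came from separate animals. The steps were tested on simulated counts. Exon lengths and positions came from GENCODE M21 and promoters from RefSeq GRCm38.p6.

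The members and lists were chosen with earlier results of these data known. Text names all Schlafen genes, up to 6 neighbours and up to 4 genes of each list with the smallest p, and the genes of closest profile; Ifnar2, Ifngr1, Camp, Erbb2, Cldn3 and the nearest flanks were named after their values were seen. Some genes of the lists are not reported here. Alternatives were other scalings, no filter, limma 3.58.1 (voom), DESeq2 1.42.0, a replicate block, leaving out each library, a stricter threshold, a 2-fold minimum, a wider window and another motif.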

Additional observations from a re-analysis of the deposited data

How the results depend on the processing

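The count of 6 Schlafen genes higher and 0 lower held under each alternative run. Log2 fold changes of single members ranged from 2.39 to 3.26 for Slfn1, 2.77 to 2.98 for Slfn2, 2.07 to 2.43 for Slfn4, 1.73 to 1.93 for Slfn5, 2.77 to 3.17 for Slfn8 and 1.37 to 1.58 for Slfn9. Slfn3 stayed on the same side of the threshold, with a log2 fold change of 0.50 to 1.29 and adjusted p of 0.0911 to 0.293. Over the whole table, an adjusted p under 0.01 left 1610 genes higher and 1464 lower, and a 2-fold minimum 764 and 716. Leaving out each library in turn gave 1733 to 2828 genes lower, the fewest without AXL KO replicate 3. Of the neighbouring genes 2 were higher with a 2-fold minimum, and in a window of 1000 kb 12 were higher and 2 lower. The replicate block gave 6 Schlafen genes higher. Deviations from the group means correlated by -0.13 to 0.09 between same-numbered libraries and by -0.21 to 0.22 between the others. So few correlations show no pairing by number and cannot exclude it. Of 420 list counts under alternatives, 364 stayed within 1.5 times of the main count, 47 were smaller and 9 larger. Many of the 364 were counts of 0 that stayed at 0, such as those of the B cell markers. The 364 therefore overstate how steady the other list counts were. Depth limits Slfn3, Slfn1, Slfn4 and Slfn10-ps, each with a WT library of 15 counts or fewer, and 3 libraries per group limit every interval.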

Other observations

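In the WT group, the library WT 2 had the highest values of several measures together. Slfn2, Slfn5 and Slfn8 were at 14, 26.2 and 6.05 CPM in WT 2, the antiviral genes summed to 470 CPM, the T cell markers to 13.6 CPM and the NK and cytotoxic markers to 6.95 CPM. Slfn1 and Slfn4 were highest in WT 1, at 1.29 and 0.883 CPM, and Slfn9 in WT 3, at 31.7 CPM. With 3 libraries no test of this order was made.

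A spelling with a base less, GAANNGAA on either strand, was found in 3 members: Slfn1 (TTCAGTTC), Slfn2 (TTCACTTC) and Slfn4 (TTCTTTTC), beginning 138, 58 and 213 bases before the start. These are not the members that held GAAANNGAA, and the shorter spelling occurs in 22.7% of 27025 genes.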
